A study of Mus musculus with 18 samples.

Results

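The comparison described here is that of interleukin-1 beta (IL1b) added to interferon-gamma (IFNg) against IFNg alone, in primary mouse macrophages that were differentiated in vitro from marrow progenitors. By the sample titles it takes 6 of the 18 libraries of the study: 3 of cells given IFNg and 3 of cells given IFNg with IL1b, all collected at 18 h, with read counts for 22598 genes. The cells of both groups are labelled WT, and both received IFNg, so the comparison shows what IL1b did in cells under IFNg and not what IL1b does alone. The labels name no doses, no strain, age or sex of the mice, and no oxygen level for these groups. The other 12 libraries were a control without cytokine and IFNg with tumour necrosis factor (TNF), with lipopolysaccharide (LPS) or with hypoxia, 3 libraries each. Whether replicate libraries represent different mice or dishes is not in the labels, so every p-value measures only the spread between these libraries, which may be technical.

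IL1b signals through the receptor Il1r1, which pairs with the accessory chain Il1rap. The paired receptor recruits the adaptor Myd88 and the Irak kinases, and through Traf6 and the kinase Map3k7 it activates NF-kappaB and the MAP kinases. The pathway is held back by the decoy receptor Il1r2, by the receptor antagonist Il1rn and by the orphan receptor Sigirr. Macrophages are best known as the source of IL1b, while fibroblasts, endothelial cells and epithelia are among its strong responders.

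IL1b changed few genes. Of 11563 genes tested, 31 rose (0.268%) and 4 fell (0.0346%) at an adjusted p under 0.05, which together is 0.303% of the genes tested (quasi-likelihood test of edgeR with Benjamini-Hochberg adjustment over all tested genes). At an unadjusted p under 0.05 there were 596 genes, or 5.15%. The genes that rose included enzymes that make nitric oxide, itaconate and prostaglandins, receptors for microbial and tissue-damage signals, and genes of oxidative stress, iron, lipid and amino acid handling. In all 35 the 3 IL1b libraries lay outside the range of the 3 IFNg libraries. Over all genes tested, 6.71% had every IL1b library above every IFNg library and 6.7% had every one below. Most changes were modest: 13 genes rose at least 2-fold, 18 rose by less than 2-fold, and 2 of the 4 that fell did so by at least 2-fold. The median log2 fold change over all genes tested was -0.0006, and 49.5% of genes lay above 0.

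**Figure D1:**
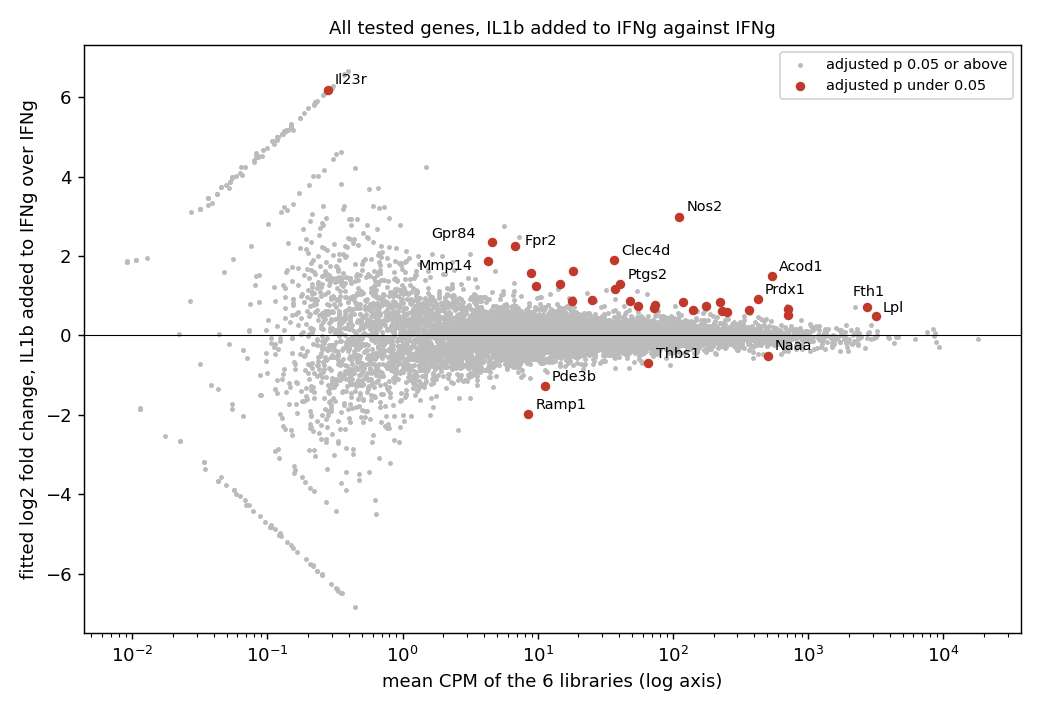
Log2 fold change of IL1b added to IFNg against IFNg (vertical) by mean CPM (log axis) of the 6 libraries (horizontal), 1 point per gene tested. The 31 genes that rose and the 4 that fell are in red, and the slanted lines of grey points are genes with 0 counts in 1 of the groups, whose fitted values are no measure of size.

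A core of 11 genes, all of them higher with IL1b, passed the test in all 15 alternative fits, of which 6 left out a library each: Clec4d, Acod1, Nos2, Prdx1, Ptgs2, Gpr84, Procr, Fpr2, Clec4e, Cd36 and Hmox1. The other 24 lost the call in at least 1 fit. When the libraries were left out in turn, the number of genes called fell to 15 without IFNg library 1 or IL1b library 3, to 21 without IFNg library 2 and to 23 without IL1b library 2. Asns and Nr1h3 passed in none of those 6 fits, and Ubd, Ramp1 and Mmp14 passed in 1.

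Enzymes of inflammatory effector metabolism rose. Levels are in CPM, a gene's count scaled to the library's total after adjustment for composition, with mean ± SD of 3 libraries where 1 value is given, and log2 fold changes are given ± their standard error (SE). Nos2, the inducible nitric oxide synthase (chr11:78920787-78960254, mm10), stood at 19, 22.1 and 33.6 CPM in the IFNg libraries and at 129, 214 and 249.9 CPM in the IL1b libraries. Acod1, which makes itaconate from a tricarboxylic acid cycle intermediate (chr14:103046977-103056573), stood at 260.5, 302 and 291 CPM with IFNg and at 638, 797 and 962 CPM with IL1b. Ptgs2, the inducible cyclooxygenase of prostaglandin synthesis (chr1:150100031-150108227), stood at 21.7, 27.5 and 21 CPM with IFNg and at 47.3, 52.1 and 73.8 CPM with IL1b. For each of the 3 enzymes the groups lay far apart, and the IL1b libraries spanned a wider range in CPM than the IFNg libraries did. The log2 fold changes were 2.99 ± 0.23 for Nos2, 1.49 ± 0.14 for Acod1 and 1.30 ± 0.16 for Ptgs2, with adjusted p values of 3.42e-07, 1.6e-07 and 7.33e-05.

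The genes around these enzymes mostly did not pass the test. Of 11 tested genes of arginine, nitric oxide and itaconate metabolism, Nos2 and Acod1 rose, 9 had a log2 fold change above 0, and the median was 0.48. Arg1, an arginase that uses the same substrate as Nos2, stood at 4.23 ± 0.44 CPM with IFNg and 9.04 ± 3.22 CPM with IL1b (adjusted p = 0.244; 0.00854 with DESeq2). Ass1, which regenerates arginine, stood at 25 ± 5.64 and 35 ± 5.14 CPM (adjusted p = 1). Of 10 tested genes of prostaglandin synthesis, Ptgs2 rose, and the median of the list was -0.05. Pla2g4a, the phospholipase that releases arachidonic acid, stood at 147 ± 6.34 and 191 ± 9.29 CPM (adjusted p = 0.275), and the prostaglandin E synthase Ptges at 0.473 ± 0.275 and 0.805 ± 0.189 CPM (adjusted p = 1). Slc13a3, a sodium-coupled transporter of dicarboxylates, lay just beyond the threshold (adjusted p = 0.0701), with 0.886, 2.35 and 3.49 CPM in the IFNg libraries and 8.87, 7.41 and 20.9 CPM in the IL1b libraries. Its groups did not overlap, and the IL1b mean was set largely by library 3.

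Several surface receptors rose. Clec4d and Clec4e are neighbouring C-type lectin genes on chromosome 6 whose products sense mycobacterial glycolipids and, for Clec4e, dead cells. Clec4d (chr6:123262111-123275265) stood at 17.8, 13.4 and 14.8 CPM in the IFNg libraries and at 48.8, 58.3 and 65.4 CPM in the IL1b libraries, and Clec4e (chr6:123281789-123289870) at 3.7, 6.06 and 3.69 CPM against 13.9, 12.2 and 14.2 CPM. Fpr2, a receptor for formyl peptides and lipid mediators (chr17:17887824-17893952), stood at 2.35, 1.71 and 3.08 CPM against 9.2, 9.19 and 15.5 CPM. All IL1b libraries were higher than all IFNg libraries for these 3 receptors. The log2 fold changes were 1.90 ± 0.14 for Clec4d, 1.58 ± 0.22 for Clec4e and 2.25 ± 0.31 for Fpr2, with adjusted p values of 2.91e-09, 0.000481 and 0.000481.

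These 3 were the members that rose among 11 tested C-type lectin and formyl peptide receptor genes, and the median of that list was 0.15. Fpr1, the neighbouring formyl peptide receptor, stood at 1.01 ± 0.662 and 3.64 ± 0.361 CPM without passing (adjusted p = 0.149). Clec7a, the beta-glucan receptor, stood at 97.9 ± 2.8 and 80.5 ± 6.33 CPM (adjusted p = 0.771), and Clec4n at 1.56 ± 1.03 and 2.79 ± 0.706 CPM (adjusted p = 1). The lectin genes lie side by side and resemble each other, and how reads shared between such genes were counted is not given in the sources used here.

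Gpr84, a receptor for medium-chain fatty acids (chr15:103308235-103310612), stood at 1.04, 2.59 and 0.82 CPM with IFNg and at 6.9, 8.49 and 7.77 CPM with IL1b. Its log2 fold change was 2.36 ± 0.31 (adjusted p = 7.38e-05), and it was 3.03 when IFNg library 2, the highest of that group, was left out. Procr, the endothelial protein C receptor (chr2:155751117-155755471), stood at 8.34, 7.3 and 9.57 CPM with IFNg and at 18.9, 21.6 and 21.2 CPM with IL1b, which is a log2 difference of 1.29 ± 0.18 (adjusted p = 0.000481). Cd36, the scavenger receptor for oxidised lipids (chr5:17781690-17888801), stood at 518, 573 and 567 CPM against 785, 818 and 1012 CPM, which is a log2 difference of 0.66 ± 0.11 (adjusted p = 0.00164). For all 3 the IL1b libraries lay above the IFNg libraries.

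Il23r, the receptor chain for interleukin-23 (chr6:67422932-67491855), had 0 counts in all 3 IFNg libraries and 27 counts in the IL1b libraries, where it stood at 0.876, 0.255 and 0.544 CPM. The IL1b mean of Il23r was 9.46-fold the level that 3 counts over the IFNg group would give (edgeR adjusted p = 0.00779 for the groups). That ratio leaves out the counting error and spread of the IL1b libraries, so it is no lower bound. DESeq2 did not call Il23r, and the call was lost without IFNg library 1. With only the 6 libraries fitted, its counts were too low for it to be tested. In the main fit it passed the filter on low counts through other groups, such as TNF with 545, 489 and 287 counts. Ms4a7, a tetraspan membrane protein of macrophages, rose from 131 ± 16.3 to 220.4 ± 27.3 CPM (adjusted p = 0.00576), and Nrp2, a semaphorin co-receptor, from 287 ± 25.5 to 446 ± 81.6 CPM (adjusted p = 0.0151).

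Among genes known for roles in oxidative stress and iron, 5 rose by less than 2-fold, a grouping made after their values were seen. The share of such genes that rose was not tested, and 0.268% of all genes tested rose. Prdx1, a peroxide-reducing enzyme (chr4:116685544-116700822), stood at 304, 251 and 327 CPM with IFNg and at 548, 563 and 555 CPM with IL1b, which is a log2 difference of 0.92 ± 0.11 (adjusted p = 1.98e-05). Hmox1, the heme oxygenase that frees iron from heme (chr8:75093621-75100589), stood at 164, 152 and 164 CPM against 259, 321 and 274 CPM, which is a log2 difference of 0.83 ± 0.14 (adjusted p = 0.00368). The IL1b libraries of Prdx1 were nearly equal, and both genes separated the groups completely. Sod2, the mitochondrial superoxide dismutase, rose from 40.9 ± 3.56 to 68.5 ± 9.24 CPM (adjusted p = 0.00642), and Esd, an esterase of glutathione-dependent formaldehyde removal, from 55.5 ± 1.46 to 90.3 ± 3.84 CPM (adjusted p = 0.00779). Fth1, the ferritin heavy chain that stores iron, rose from 2068 ± 256 to 3394 ± 729.5 CPM and lay close to the threshold (adjusted p = 0.0355). Prdx1 and Fth1 have near-identical copies elsewhere in the genome, so their counts are uncertain. Gapdh, which also has many copies and is used by every cell, stood at 0.0228 CPM with IFNg and at 0 with IL1b in these files.

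Some genes of lipid and amino acid handling rose as well. Lpl, the lipoprotein lipase, rose from 2624 ± 148 to 3704 ± 217 CPM (log2 fold change 0.50 ± 0.10, adjusted p = 0.0219), and Acsl1, which activates long-chain fatty acids, from 172, 203 and 225 CPM to 264, 306 and 328 CPM (adjusted p = 0.0211). Nr1h3, the oxysterol receptor LXR alpha, rose from 12.8 ± 1.47 to 23.3 ± 2.47 CPM (adjusted p = 0.0355). With Cd36, these are 4 genes of fatty acid and sterol uptake, activation and sensing, a grouping made after their values were seen. Here too the share of such genes that rose was not tested, against 0.268% of all genes tested. Slc6a19, a transporter of neutral amino acids, stood at 8.24, 7.48 and 10.9 CPM with IFNg and at 25.3, 23.7 and 33 CPM with IL1b, which is a log2 difference of 1.63 ± 0.28 (adjusted p = 0.00576). Atf4, the transcription factor of amino acid shortage, rose from 184 ± 16.6 to 281 ± 17.3 CPM (adjusted p = 0.012). Asns, the asparagine synthetase and a textbook Atf4 target, rose from 23 ± 3.69 to 51.6 ± 5.45 CPM and was the called gene with the highest adjusted p (0.04).

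The other risen genes had varied roles. Serpinb9, an inhibitor of granzyme B, rose from 34.3 ± 6.7 to 62.4 ± 4.85 CPM (adjusted p = 0.0042). Ubd, the ubiquitin-like FAT10, rose from 5.74 ± 0.324 to 13.8 ± 3.15 CPM (adjusted p = 0.0111), and the T cell chemokine Ccl5 from 109 ± 1.06 to 171 ± 23.9 CPM (adjusted p = 0.0292). These 3 genes, like Nos2 and Acod1, had already risen with IFNg over the control, by log2 fold changes of 2.35 for Serpinb9, 9.51 for Ubd and 4.63 for Ccl5, although the Ubd value is set against 0 counts in the control and is no measure of size. In that comparison 13.5% of the genes tested were higher and 10% lower with IFNg (1566 and 1161 genes, or 1220 and 1791 with library totals in place of scaling for composition). Ptgs2, Slc6a19 and Rgs1 were also higher with IFNg than in the control. So were Acsl1, Fpr2, Cd36, Asns, Lpl and Atf4, by log2 fold changes from 1.95 (Acsl1) down to 0.35 (Atf4). Igf1, a growth factor, had fallen with IFNg (log2 fold change -3.48) and rose with IL1b from 17.6 ± 1.08 to 32.5 ± 1.75 CPM (adjusted p = 0.0105). Other risen genes had fallen with IFNg too, among them Clec4d (-4.16), Clec4e (-2.30), Ms4a7 (-2.06), Gpr84 (-1.78) and Fth1 (-1.58). In the control Clec4d stood at 274 ± 37.7 CPM and Fth1 at 6193 ± 1047 CPM, above their IL1b levels. Gpr84 stood at 5.14 ± 1.5 CPM there, below its IL1b level. Rgs1, a brake on chemokine receptor signalling, rose from 85.1 ± 8.81 to 152 ± 18 CPM (adjusted p = 0.0123), and Ell2, a transcription elongation factor, from 54.5 ± 10.4 to 92.2 ± 14.5 CPM (adjusted p = 0.0136). The surface proteases Adam8 and Mmp14 rose from 579 ± 31 to 835 ± 85 CPM (adjusted p = 0.016) and from 1.82 ± 0.608 to 6.71 ± 2.49 CPM (adjusted p = 0.0292).

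The 4 genes that fell lost the call in 2 or more of the 6 fits that left out a library, and the number of lower genes depended on the fit: 19 with DESeq2 (67 higher), 19 with the 6 libraries alone (49 higher) and 9 with the replicate block (39 higher). Pde3b, a phosphodiesterase that breaks down cyclic AMP (chr7:114415281-114539251), stood at 17.4, 14.2 and 16.1 CPM with IFNg and at 7.01, 4.66 and 8.16 CPM with IL1b, which is a log2 difference of -1.27 ± 0.25 (adjusted p = 0.012). Ramp1, the co-receptor of calcitonin gene-related peptide (chr1:91179822-91225196), stood at 16.6, 12.5 and 11.8 CPM against 5.26, 2.11 and 2.95 CPM, which is a log2 difference of -1.98 ± 0.41 (adjusted p = 0.0272). Every IL1b library was below every IFNg library for both genes. DESeq2 did not call Ramp1. Thbs1, the matrix protein thrombospondin 1, fell from 81.4 ± 9.29 to 50.1 ± 4.25 CPM (log2 fold change -0.70 ± 0.14, adjusted p = 0.0187), and Naaa, a lysosomal amidase of fatty acid ethanolamides, from 591 ± 42.8 to 414 ± 44.9 CPM (log2 fold change -0.51 ± 0.11, adjusted p = 0.0227).

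**Figure D2:**
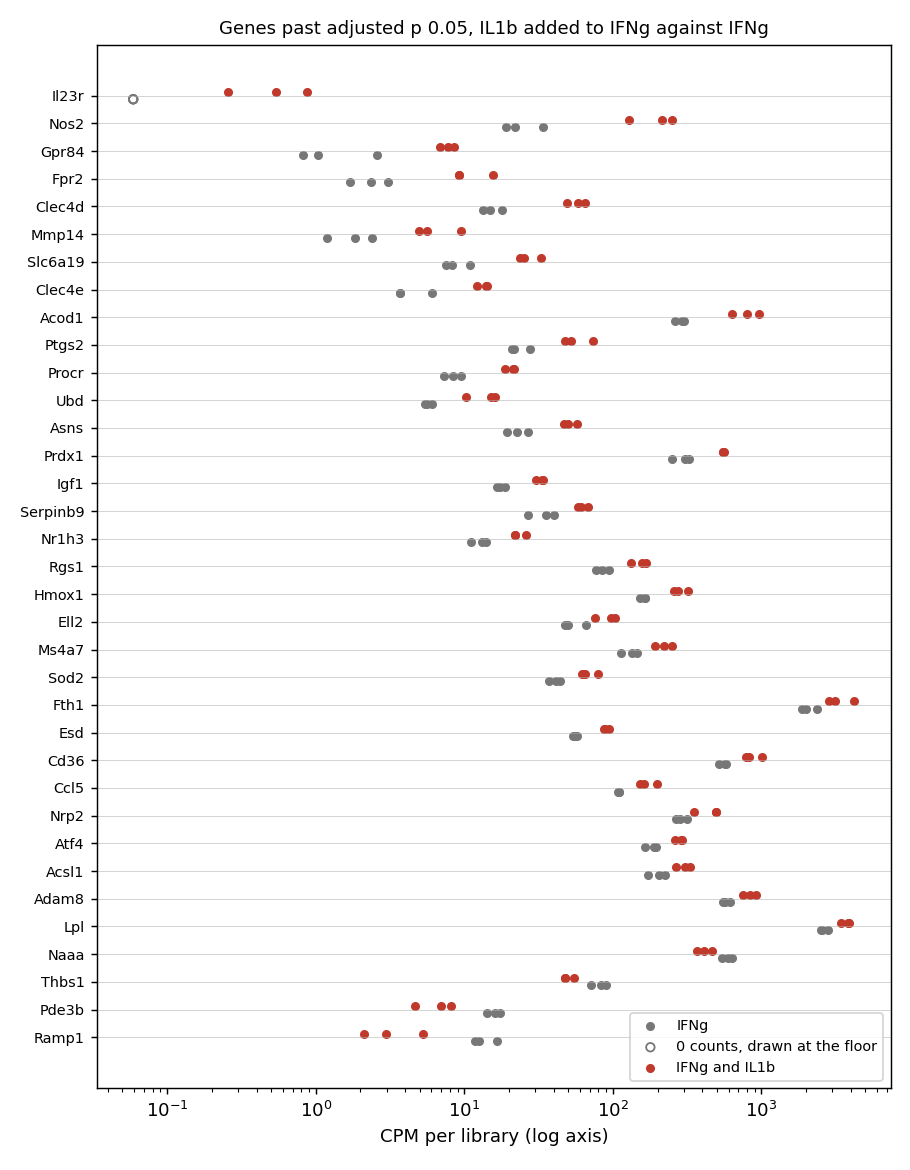
Level of each of the 35 changed genes in each of the 6 libraries, in CPM on a log axis, with IFNg and IFNg with IL1b as separate symbols. The 2 sets of symbols do not overlap for any gene, and open symbols mark libraries with 0 counts drawn at the IFNg group floor of 0.0591 CPM.

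The threshold fell within a run of similar genes. Just inside it were Fth1 and Nr1h3 (both 0.0355) and Asns (0.04). Just outside were Plxnd1, a semaphorin receptor (201 ± 6.13 against 149 ± 11 CPM, adjusted p = 0.052), the complement component C3 (1689 ± 319.7 against 2769 ± 594 CPM, adjusted p = 0.0627), the cytokine Il6 (adjusted p = 0.063), the ubiquitin ligase Rnf128 (14.9 ± 2.57 against 31.1 ± 10.5 CPM, adjusted p = 0.0681) and Slc13a3, given above. Il6 had 0 counts in the IFNg libraries and 26 counts in the IL1b libraries (0.712, 0.128 and 0.855 CPM). Its IL1b mean was 9.56-fold the same floor of 3 counts, again with no allowance for the spread of those libraries.

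Promoter windows of 5 changed genes are printed to show which recognition motifs lie in them. The windows are the 250 bases before the annotated start, from RefSeq (GRCm38.p6), 5′ to 3′ along the gene, with matches to any of 7 searched motifs in capitals on either strand. They were chosen because they belong to the enzyme, lectin, antioxidant and amino acid groups above and hold a match. The Clec4e window is chr6:123289872-123290121 (minus strand), Ptgs2 is chr1:150099781-150100030 (plus), Prdx1 is chr4:116685349-116685598 (plus), Sod2 is chr17:13007589-13007838 (plus) and Asns is chr6:7693210-7693459 (minus).
Clec4e: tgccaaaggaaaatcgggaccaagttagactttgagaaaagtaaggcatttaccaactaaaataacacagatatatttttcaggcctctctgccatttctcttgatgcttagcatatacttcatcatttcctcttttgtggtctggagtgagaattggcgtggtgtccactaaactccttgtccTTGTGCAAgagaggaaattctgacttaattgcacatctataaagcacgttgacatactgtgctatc
Ptgs2: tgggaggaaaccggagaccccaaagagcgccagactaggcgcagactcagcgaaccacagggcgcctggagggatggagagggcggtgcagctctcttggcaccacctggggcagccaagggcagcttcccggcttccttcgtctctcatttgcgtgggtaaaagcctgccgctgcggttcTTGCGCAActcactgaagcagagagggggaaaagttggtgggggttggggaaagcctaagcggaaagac
Prdx1: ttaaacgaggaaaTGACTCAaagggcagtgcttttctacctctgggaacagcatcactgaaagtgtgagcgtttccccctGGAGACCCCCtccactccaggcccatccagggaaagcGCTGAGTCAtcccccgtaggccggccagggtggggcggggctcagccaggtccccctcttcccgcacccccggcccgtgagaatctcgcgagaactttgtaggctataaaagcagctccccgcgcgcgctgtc
Sod2: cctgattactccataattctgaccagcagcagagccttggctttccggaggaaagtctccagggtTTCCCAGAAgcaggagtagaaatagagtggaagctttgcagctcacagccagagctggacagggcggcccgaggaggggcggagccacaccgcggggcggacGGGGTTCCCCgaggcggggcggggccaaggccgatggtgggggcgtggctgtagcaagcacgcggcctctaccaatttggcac
Asns: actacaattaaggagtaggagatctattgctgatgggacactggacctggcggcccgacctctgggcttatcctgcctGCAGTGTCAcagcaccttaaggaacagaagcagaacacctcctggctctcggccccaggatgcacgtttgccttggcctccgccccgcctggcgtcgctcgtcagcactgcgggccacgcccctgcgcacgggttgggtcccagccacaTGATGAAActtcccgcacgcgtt

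In the Clec4e and Ptgs2 windows the capitals mark the C/EBP motif TTGCNNAA, 66 and 69 bases before the start. In the Prdx1 window they mark the NF-kappaB consensus 170 bases before the start, the AP-1 motif TGANTCA at 237 and 131 bases, and the antioxidant response element core TGACNNNGC at 133 bases, which overlaps the second AP-1 match. The Sod2 window holds the NF-kappaB consensus at 83 bases and the IFNg-activated site TTCNNNGAA at 185 bases. The Asns window holds the antioxidant core at 172 bases and the ATF4 element TGATGNAA at 23 bases. Of the 35 changed genes, 28 had a window in the RefSeq table, and some had more than 1 (32 windows together). A gene was counted if any of its windows held a match, while the share over all windows is per window. The 2 are therefore not in the same unit. Both strands were searched, and motifs may overlap. The NF-kappaB consensus was found in windows of 3 of the 28 genes (Prdx1, Sod2 and Ubd) and in 3.9% of all 32851 windows. The C/EBP motif was found for 6 genes against 9.56% of all windows, AP-1 for 4 against 6.75%, the antioxidant core for 5 against 10.2%, the IFNg-activated site for 2 against 7.02%, the interferon-stimulated response element for 1 against 2.98% and the ATF4 element for 1 against 3.45%. A match is a run of letters and not a measured binding site, and a window without a match says nothing about the factor.

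The signalling receptor for IL1b was at the floor of detection. Il1r1 had 0 counts in all 3 IFNg libraries, and 4, 0 and 0 counts in the IL1b libraries. A library with 0 counts allows up to 3 counts, which is 0.156 to 0.233 CPM in these 6 libraries, by counting error only. The gene could be counted in this data set, since the control libraries held 21, 5 and 0 counts, the TNF libraries 23, 39 and 62, and the LPS libraries 14, 28 and 35. In RPKM (reads scaled to gene width and library total, the authors' own values) Il1r1 stood at 0.752 ± 0.463 with TNF and 0.493 ± 0.259 with LPS, and the direct difference from IL1b passed with TNF (adjusted p = 0.0247) and not with LPS (adjusted p = 0.123). Bulk RNA cannot tell a few cells with much receptor RNA apart from many cells with little.

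The other parts of the receptor complex were detected, and none passed the test with edgeR. Of 9 tested receptor, co-receptor and decoy genes, 0 passed with edgeR, and 1, Il1rn, had an unadjusted p under 0.05. The accessory chain Il1rap stood at 1.64 ± 0.236 RPKM with IFNg and 1.69 ± 0.378 RPKM with IL1b, the decoy Il1r2 at 0.667 ± 0.285 and 0.548 ± 0.578 RPKM, and Sigirr at 2.98 ± 0.837 and 2.31 ± 0.412 RPKM (each adjusted p = 1). These 3 mean levels were all higher per length than that of Il1r1 in the same groups. The antagonist Il1rn stood at 12.5 ± 1.18 RPKM with IFNg and 24 ± 6.07 RPKM with IL1b, a log2 fold change of 0.94 ± 0.25 that did not pass (adjusted p = 0.232) and that DESeq2 called (adjusted p = 0.00813). Il1rn reached 637 ± 179 RPKM with TNF and 165 ± 43.7 RPKM with LPS, both above IL1b (adjusted p = 2.39e-11 and 1.62e-07). Il18bp, the soluble binder of the related cytokine IL-18, stood at 442 ± 39.4 and 475 ± 53.9 RPKM.

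The adaptors and kinases named next had higher levels per length than the receptor in both groups. Of 22 tested genes of receptor-proximal signalling, 0 passed with edgeR or DESeq2 and 0 had an unadjusted p under 0.05. The median log2 fold change was -0.04. Myd88 stood at 102 ± 4.47 RPKM with IFNg and 94.9 ± 8.56 RPKM with IL1b, Irak4 at 28 ± 2.41 and 25.6 ± 2.55 RPKM, Irak1 at 28 ± 0.936 and 25.5 ± 0.832 RPKM, and Traf6 at 13.6 ± 5.67 and 11.8 ± 2.91 RPKM. Irak2, which sustains the signal, stood at 24.2 ± 0.672 and 27.2 ± 1.31 RPKM, and Irak3, its macrophage inhibitor, at 9.25 ± 0.695 and 9.11 ± 3.04 RPKM. The kinase Map3k7 stood at 10.5 ± 0.881 and 8.45 ± 0.785 RPKM and its partner Tab2 at 75.5 ± 8.12 and 76.8 ± 9.8 RPKM. Receptors of the other stimuli were well above Il1r1 per length in both groups, with Tlr4, the LPS receptor, at 65 ± 5.34 and 73.8 ± 7.3 RPKM and the TNF receptor Tnfrsf1a at 179.6 ± 18.1 and 188 ± 16.3 RPKM. Of the 13 tested genes for those receptors 0 passed with edgeR or DESeq2, and 0 had an unadjusted p under 0.05. Ube2v1, a ubiquitin-conjugating cofactor present in most cells, had 0 counts in the 6 libraries, so a 0 in these files can also stand for reads that were not counted.

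**Figure D3:**
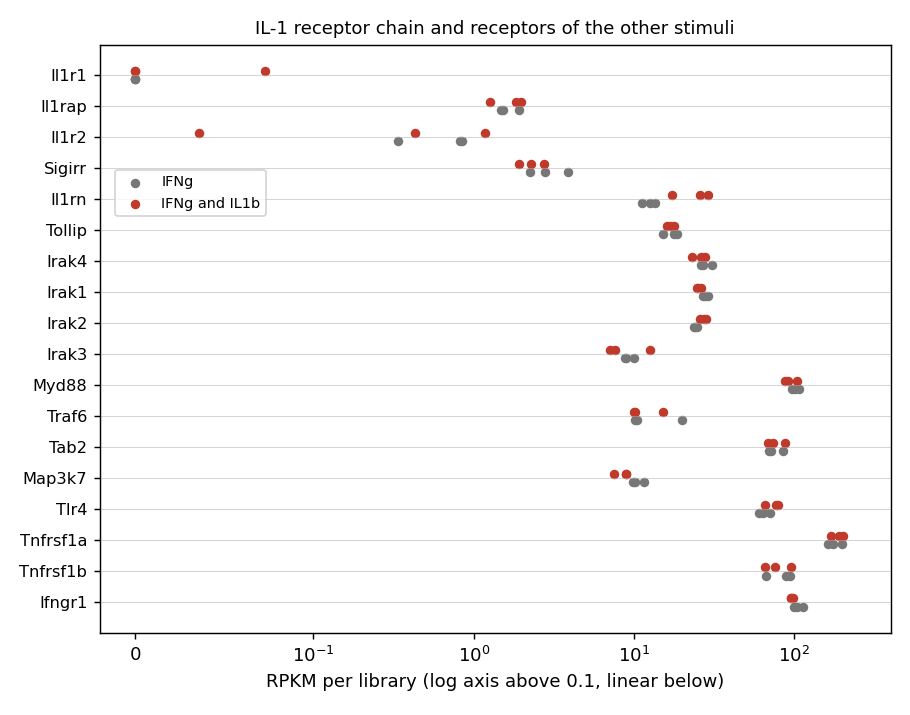
Levels of IL1b receptor and proximal signalling genes and of receptors for LPS, TNF and IFNg in RPKM (log axis above 0.1, linear below), 1 symbol per library, for IFNg and IFNg with IL1b. Il1r1 lies at or near 0 in both groups, and Il1rap, Sigirr, Myd88 and the Irak genes lie above it.

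Downstream, the inducible feedback genes of NF-kappaB did not pass the test at 18 h. Of 19 tested NF-kappaB subunits, kinases and inhibitors, 0 passed with edgeR or DESeq2, and the median was 0.01. An unadjusted p under 0.05 was reached by 3 of the 19, all with higher values, against 5.15% of all genes tested in either direction. Nfkbia, the inhibitor made in response to NF-kappaB, stood at 46.8 ± 9.19 and 56.8 ± 1.22 CPM (adjusted p = 1). Tnfaip3, the A20 brake on the same pathway, stood at 43.2 ± 5.63 and 55.8 ± 2.91 CPM (adjusted p = 0.531), and Nfkbiz, a nuclear cofactor of late targets, at 25 ± 4.4 and 36.6 ± 7.26 CPM (adjusted p = 0.399). Of 21 tested MAP kinase and AP-1 genes 0 passed with edgeR or DESeq2 (2 at an unadjusted p under 0.05), and of 7 C/EBP genes 0 passed with either (0 at an unadjusted p under 0.05), with all 7 at a log2 fold change below 0.

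Of 29 tested textbook target genes of IL-1 and NF-kappaB, 4 rose (Nos2, Acod1, Ptgs2 and Sod2), against 0.268% of all genes tested. DESeq2 called 6, with Ehd1 and Tnfaip2. An unadjusted p under 0.05 was reached by 14 of the 29, all higher, against 5.15% of all genes in either direction. A log2 fold change above 0 was seen for 22, and the median was 0.57, against -0.0006 over all genes tested. The gene lists were chosen with earlier results of these data known, so these shares are no independent test. Some members were too low to measure here, such as Cxcl3 with 0 counts with IFNg and 1 with IL1b. Cxcl3 passed the filter on low counts through other groups, such as TNF with 711 counts. Ccl2, a monocyte chemokine, stood at 33.8 ± 9.75 and 74.2 ± 6.88 CPM (adjusted p = 0.542), Ccl7 at 1.45 ± 1.27 and 9.88 ± 1.3 CPM (adjusted p = 0.411), and Tnf at 26.4 ± 3.01 and 39.4 ± 1.93 CPM (adjusted p = 0.572). Icam1, an adhesion molecule, stood at 342 ± 4.72 and 357 ± 36.8 CPM (adjusted p = 1). Ccl20, Csf2, Csf3, Il12b and Il23a had 0 counts in all 6 libraries. Among IL-1 family ligands and processing genes 0 of 8 passed with edgeR or DESeq2 (1 at an unadjusted p under 0.05). Il1b itself stood at 2.25 ± 0.773 and 2.73 ± 1.68 CPM.

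The IFNg response list held no gene that passed the test with edgeR. Genes outside that list that IFNg had raised did pass, among them Nos2, Acod1, Serpinb9, Ubd and Ccl5. Of 31 tested genes on the list, 0 passed with edgeR and 1, Cxcl9, with DESeq2. On the same list 10 of the 31 had an unadjusted p under 0.05 (5 higher and 5 lower), against 5.15% of all genes tested. The median was -0.02. Irf1, a transcription factor induced by IFNg, stood at 1089 ± 37.2 and 1069 ± 16.2 CPM. The chemokine Cxcl9 stood at 521 ± 22.6 and 875 ± 29.9 CPM (adjusted p = 0.142; 0.000172 with DESeq2). Ciita, the switch for MHC class II genes, stood at 749 ± 45 and 571 ± 29.7 CPM (adjusted p = 0.417), and the class II chain Cd74 at 10154 ± 751 and 8274 ± 439 CPM (adjusted p = 0.565). Of 20 type I interferon genes 0 passed with edgeR and 1, Isg15, with DESeq2 (3 at an unadjusted p under 0.05), and 18 had a log2 fold change above 0 and the median was 0.16. Of 19 hypoxia and glycolysis genes 0 passed with edgeR or DESeq2 (4 at an unadjusted p under 0.05), with 15 above 0 and a median of 0.23. Over all genes tested, 5.15% reached that unadjusted p and 49.5% lay above 0.

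Most genes that rose with IL1b stood higher still with TNF or LPS. These comparisons use the same 3 IL1b libraries as the comparison above, so they are given as levels and direct differences only. With TNF, 42% of all genes tested differed from IL1b, 20.9% higher and 21.1% lower. Of the 31 risen genes, 27 were higher with TNF, 1 (Lpl) was lower, and 3 (Ms4a7, Rgs1 and Asns) did not pass. The median log2 difference of the 31 was 3.73, against -0.04 over all genes. With LPS, 14.1% of all genes differed from IL1b, 7.13% higher and 6.95% lower, and of the 31 risen genes 28 were higher, 0 lower, and 3 (Ms4a7, Lpl and Asns) did not pass, with a median of 2.15. The split over all genes depended on the scaling: with library totals in place of TMM factors, 1466 genes were higher and 4102 lower with TNF, against 2418 and 2442, and 662 higher and 1080 lower with LPS, against 824 and 804. On that scale 26 of the 31 genes were higher with TNF and 2 lower (Lpl and Ms4a7), and 28 were higher with LPS. Without IL1b library 2, 26 were higher with LPS, since Atf4 (adjusted p = 0.0524) and Rgs1 (adjusted p = 0.0654) no longer passed.

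The size of the gap differed widely between genes. Nos2 stood at 198 ± 62.2 CPM with IL1b, 3091 ± 425 CPM with LPS and 20102 ± 1774 CPM with TNF. Procr stood at 20.6 ± 1.48, 275 ± 81.6 and 2209 ± 262 CPM in the same order, and Clec4e at 13.4 ± 1.09, 332 ± 52.2 and 2956 ± 259 CPM. For these 3 the TNF and LPS levels were above IL1b in the direct tests, with adjusted p values between 1.86e-13 and 4.95e-10 for LPS and between 4.36e-18 and 1.12e-13 for TNF. At the other end, Ms4a7 stood at 220.4 ± 27.3 CPM with IL1b, 267 ± 35.7 CPM with LPS (adjusted p = 0.2) and 198 ± 8.47 CPM with TNF (adjusted p = 0.385). Asns stood at 51.6 ± 5.45, 63.8 ± 13.1 and 59.6 ± 11.8 CPM (adjusted p = 0.528 for LPS and 0.541 for TNF). Lpl stood at 3704 ± 217 CPM with IL1b, 3443 ± 277 CPM with LPS (adjusted p = 0.621) and 1493 ± 53.4 CPM with TNF, which was lower (log2 difference -1.31, adjusted p = 6.38e-11).

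The 4 genes that fell parted in the same tests. Naaa was lower still with TNF (81.6 ± 3.52 CPM) and LPS (182 ± 17.3 CPM) than with IL1b (414 ± 44.9 CPM), and Ramp1 had 0 counts with TNF and 1.1 ± 0.736 CPM with LPS. Pde3b and Thbs1 were higher with both than with IL1b. With IFNg alone Pde3b stood at 15.9 ± 1.62 CPM, which was above its LPS mean and below its TNF mean. Thbs1 stood at 50.1 ± 4.25 CPM with IL1b, 713 ± 60.9 CPM with LPS and 2552 ± 544 CPM with TNF (adjusted p = 9.95e-16 and 4.15e-19), and Pde3b at 6.61 ± 1.78, 13.1 ± 3.07 and 37.7 ± 6.41 CPM (adjusted p = 0.00587 and 3.73e-09). Without IL1b library 2 the difference of Pde3b from LPS did not pass (log2 difference 0.79, adjusted p = 0.0595). That of Ramp1 did not pass without IL1b library 1, LPS library 1 or LPS library 2 or with the 6 libraries alone (adjusted p = 0.0661 to 0.144).

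**Figure D4:**
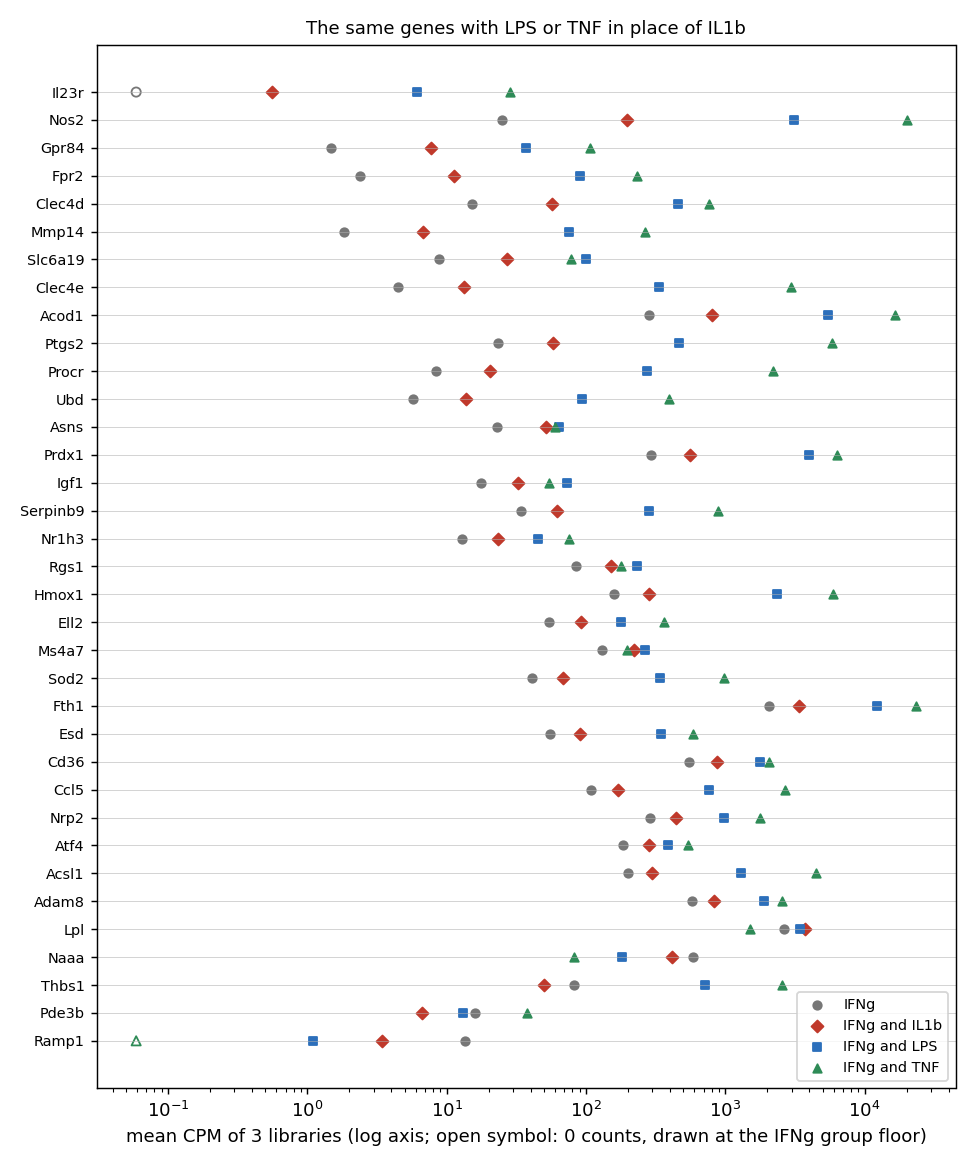
Group means of the changed genes with IFNg, IFNg with IL1b, IFNg with LPS and IFNg with TNF, in CPM on a log axis. For most genes that rose with IL1b the LPS and TNF means lie further up, while those of Ms4a7 and Asns lie close to IL1b and Lpl is lowest with TNF. Open symbols mark groups with 0 counts, drawn at 0.0591 CPM.

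The libraries carried macrophage RNA in both groups. The 12 macrophage markers, Csf1r, Adgre1 and Cd68 among them, summed to 15592 to 17330 CPM with IFNg and to 15438 to 16834 CPM with IL1b, with a median log2 fold change of -0.00. The T cell markers Cd3e, Cd3d, Cd3g and Trac and the B cell markers Ms4a1, Cd79a and Pax5 had 0 counts. Other members of these lists had counts: the T cell list summed to 43.1 to 59.8 CPM with IFNg and 49.6 to 68.4 CPM with IL1b, mostly from Il7r, and the B cell list to 505 to 579 and 451 to 477 CPM, mostly from Ighm. The NK cell list summed to 76.9 to 95.6 and 62.8 to 71.9 CPM, mostly from Klrk1, with Ncr1, Klrb1c, Gzma, Prf1 and Eomes at 0. None of the tested members of these 3 lists passed with edgeR or DESeq2, and 0 had an unadjusted p under 0.05. The 10 markers of neutrophils and their precursors summed to 106 to 129 CPM with IFNg and to 85.9 to 100.1 CPM with IL1b. Of 9 tested 0 passed with edgeR or DESeq2 (1 at an unadjusted p under 0.05) and 8 had a log2 fold change below 0. The part of these other cell type markers in the 35 changes was not tested. The 9 fibroblast markers summed to 4.9 to 7.25 CPM and 2.46 to 6.14 CPM. The 6 libraries held 12270565 to 17568777 counts, the fewest in IL1b library 3.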

How the data were processed

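RNA was profiled in 18 libraries of mouse bone-marrow-derived macrophages, prepared with the Truseq Stranded mRNA kit (RNA input 100 ng, single-end sequencing, read length 50 bp), per the labels' protocols. Reads were aligned with GSNAP to mm10, per the submitters' processing notes. Not given in the sources used here were the counting program, the gene models, strand use and the treatment of reads with several matches. The deposited files gave the authors' read count per gene and an RPKM value, per the file headers. Of the deposited widths, 86.7% were multiples of 3, as for coding length, and GENCODE M21 gave a symbol for 22534 of the 22598 identifiers, and the gene positions.

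The counts were tested with edgeR 4.0.16 (R 4.3.3) by the quasi-likelihood test with robust estimation, with TMM factors, after filterByExpr at its defaults. The model held 6 group means fitted to the 18 libraries, and p-values were adjusted by Benjamini-Hochberg over the 11563 genes tested, with a threshold of 0.05. SEs were computed from the fold change and F. The same model gave the direct comparisons with TNF, LPS and control. CPM values used the TMM factors (1.03 to 1.1 in the 6 libraries), and a floor of 3 counts was 0.156 to 0.233 CPM. The deposited RPKM values were used for levels compared between genes. They imply library totals of which 52.1 to 54.3% were counted in genes of the 6 libraries. Replicates were not copies of each other, with a chi-square per degree of freedom of 12.5 to 24.7.

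Named genes were every gene past the threshold, the 5 with the next smallest p, and part of the receptor and proximal signalling genes. From the other lists they were the members that passed and up to 6 others by level or at 0 counts. The comparison, gene lists and rules were chosen with earlier results of these data known. Alternatives were DESeq2 1.42.0 and its size factors, library totals, no filter, a filter at 10 CPM in 3 libraries, a replicate block, no robust estimation, the 6 libraries alone, the totals behind the RPKM values (added after the data were seen) and each library left out. Promoter windows came from RefSeq (GRCm38.p6). Exact zeros can stand for reads that were not counted.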

Additional observations from a re-analysis of the deposited data

How the results depend on the processing

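Against the 35 genes called for IL1b, DESeq2 called 86 (67 higher and 19 lower), of which 33 were among the 35, and a fit of the 6 libraries alone called 68 (49 and 19). Leaving out 1 library gave 15 to 35 genes. The other settings gave 35 to 48. With the replicate number as a block, 48 genes were called, 33 of them among the 35. The block called 5004 genes for TNF against IL1b, 1827 for LPS against IL1b and 2917 for IFNg against control. Without the block these counts were 4860, 1628 and 2727. The replicate numbers come from the sample titles, which open with M1, M2 or M3 in every group and do not say what M stands for. The labels do not say that equal numbers share a mouse or culture, so the numbers were not taken as pairs. IFNg and IL1b libraries with the same number deviated together only weakly, with correlations of 0.149, 0.015 and 0.023. Those with different numbers had correlations of -0.096 to 0.071. No called gene changed direction under any setting run: over the 35 genes and all settings, 433 values stayed past the threshold and 91 did not. The cause of the lost calls was not tested. Depth limits the low genes: Il23r, Il6 and Il1r1 rest on 27, 26 and 4 counts over the IL1b group.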

Other observations

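DESeq2 called 53 genes that edgeR did not, and the ones described here were picked from them after their values were seen. They are examples and no list of such genes was tested. Gclm, a subunit of the enzyme that starts glutathione synthesis, had a DESeq2 log2 fold change of 0.92 ± 0.21 (SE, adjusted p = 0.00232), Gsr, the glutathione reductase, of 0.75 ± 0.19 (adjusted p = 0.0113) and Pgd, an NADPH-producing enzyme of the pentose phosphate pathway, of 0.41 ± 0.12 (adjusted p = 0.0455). Sqstm1, an autophagy receptor, had a value of 0.40 ± 0.10 (adjusted p = 0.00805). With edgeR these 4 genes had adjusted p values of 0.121, 0.0807, 0.244 and 0.149. All 4 were higher with IL1b, while the 53 also held lower genes. Among those were Man2b1 (DESeq2 log2 fold change -0.39 ± 0.08, adjusted p = 0.000596) and Txnip (-0.47 ± 0.12, adjusted p = 0.00935).

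Arg2, the mitochondrial arginase, had 0 counts in the IFNg libraries and 21 counts in the IL1b libraries. Its IL1b mean was 7.68-fold the floor of 3 counts over the IFNg group, with no allowance for the spread of the IL1b libraries. Arg2 did not pass the test (edgeR adjusted p = 0.36).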
